A study of Mus musculus with 92 samples.

Results

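The cells described here are 21 Mono cells from the granulocyte-monocyte progenitor (GMP) gate of mice homozygous for the Gfi1 R412X allele on the C57BL/6 strain. They were selected on their own transcripts: all 21 had Irf8 above 1 TPM (a transcript's share of all transcripts in a cell, scaled to a fixed total), 12 of them also had Gfi1 above 1 TPM (the Gfi1-positive cells), and 9 had Gfi1 at or below 1 TPM (the Gfi1-negative cells). They are 21 of 24 cells that the authors' deposited state table calls Mono, of 45 cells in the GMP gate and of 92 cells in the series. The other 47 cells came from a second sorted gate, CD11b+ GMP-P. Every cell in both gates is homozygous for the R412X allele, so the Gfi1 RNA measured is that of the mutant allele and no wild-type cell enters any value below.

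Bone marrow from crushed hindlimbs was enriched for CD117, the receptor Kit, and sorted. Single cells were captured on the Fluidigm C1, a microfluidic device that lyses each cell in its own chamber. How many mice were used is not stated. The Gfi1-positive and Gfi1-negative cells share the same header prefix in the deposited table and come from 1 gate, and such cells are not replicates of a condition. Differences between them are therefore descriptions with no test, and all errors are the SD over cells.

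GFI1 is a zinc-finger transcriptional repressor that works through its SNAG domain and the LSD1-CoREST complex, and it is required for neutrophil development. IRF8 is a transcription factor of monocyte and dendritic cell development, and GFI1 and IRF8 are known to oppose one another when GMPs choose between the neutrophil and the monocyte fate. Cells that hold both transcripts carry the RNA of both sides of that choice, which is the question addressed by setting the 12 cells against the 9.

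Irf8 chose the cells, and Hdc had the largest difference between the sides among the genes named below, so the sequence around their starts is shown. Both windows are from RefSeq (GRCm38.p6), run from 250 bases before to 50 bases after the annotated start of transcription and are written 5′ to 3′ on the gene's own strand. Capitals mark the 6 letters AAATCA or, on the other strand, TGATTT, which hold the AATC core that GFI1 is known to bind. The core alone (AATC, or GATT on the other strand) also occurs outside the capitals in both windows and is not marked or counted. The Irf8 window lies at chr8:120736108-120736407 on the plus strand, and the Hdc window at chr2:126618629-126618928 on the minus strand.
Irf8: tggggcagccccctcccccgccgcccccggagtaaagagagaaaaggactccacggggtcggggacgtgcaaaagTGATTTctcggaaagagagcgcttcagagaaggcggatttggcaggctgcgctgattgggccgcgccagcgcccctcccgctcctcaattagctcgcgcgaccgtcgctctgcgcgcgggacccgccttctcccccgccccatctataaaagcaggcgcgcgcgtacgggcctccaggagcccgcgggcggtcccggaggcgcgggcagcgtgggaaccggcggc
Hdc: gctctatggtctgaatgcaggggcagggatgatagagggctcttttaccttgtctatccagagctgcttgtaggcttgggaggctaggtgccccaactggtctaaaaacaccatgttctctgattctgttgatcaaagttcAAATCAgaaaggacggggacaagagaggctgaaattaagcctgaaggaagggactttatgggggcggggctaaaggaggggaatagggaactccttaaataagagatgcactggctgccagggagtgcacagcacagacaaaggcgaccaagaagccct
Each window held 1 match, as did the window at the other annotated Irf8 start, which is not printed. A match was present in 14% of all 32851 promoter windows and in 7.72% of 7478 windows of the genes compared. Of the 10 genes with the highest difference, 8 had a window in the RefSeq table, and 2 of their 9 windows held a match (Hdc and Hadhb). Of the 10 with the lowest, 7 had a window, and 0 of their 8 windows held one. In the list of 22 genes known to be repressed by GFI1, read below, 15 had a window. A match was held by 1 of their 23 windows (4.35%), that of Gfi1b. A match is a run of letters and not a measured binding site.

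Gfi1 was 1.94 TPM in the lowest, 76.1 TPM in the median and 248 TPM in the highest Gfi1-positive cell, and it was at 0 in 6 of 9 Gfi1-negative cells, with 0.41 TPM in the highest of them. These values chose the cells and are a description. Only 1 cell lay near the threshold on its inner side, cell 38 at 1.94 TPM, and the next was cell 36 at 24.4 TPM. The cell nearest to it on the outer side was cell 19 at 0.41 TPM. A cell can be listed at 0 because its transcripts were missed, so some cells may stand on the wrong side. Irf8, which also chose the cells, was 4.24, 88.1 and 254 TPM in the lowest, median and highest Gfi1-positive cell and 8.44, 126 and 318 TPM in the Gfi1-negative cells. The sides overlapped in Irf8 over nearly their whole range.

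**Figure D1:**
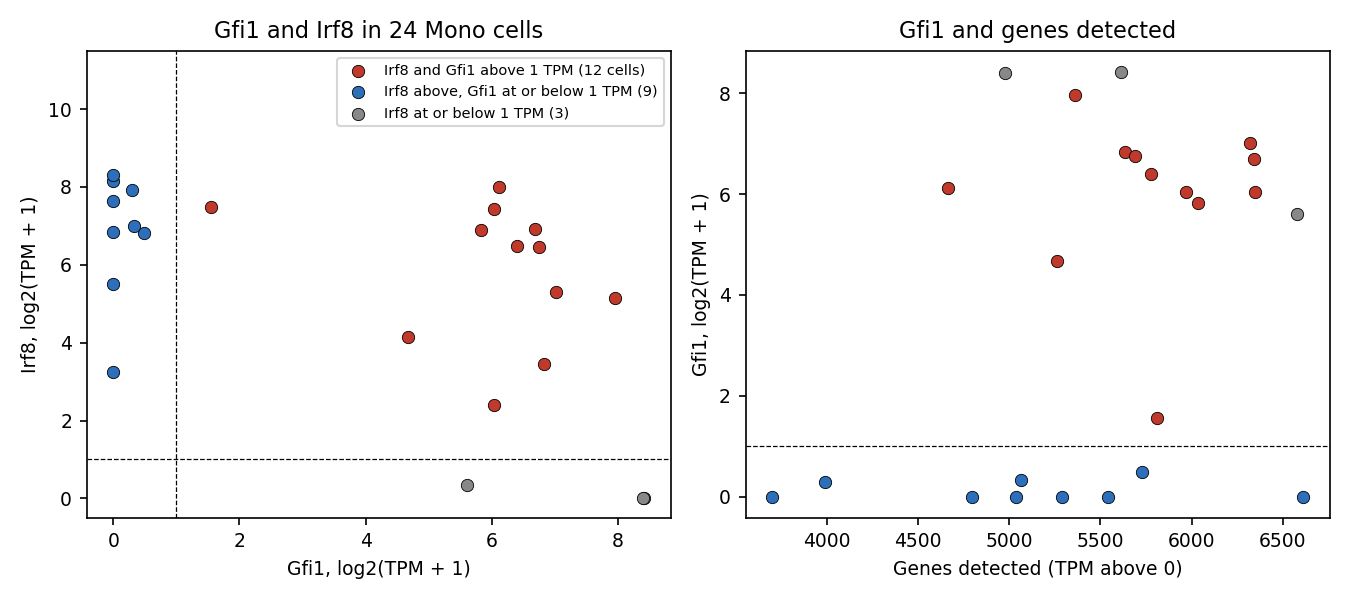
Left, Irf8 against Gfi1, both as log2(TPM + 1), in 12 Gfi1-positive (red), 9 Gfi1-negative (blue) and 3 further Mono cells without Irf8 (grey), with dashed lines at 1 TPM. Right, Gfi1 against the number of genes detected in the same 24 cells. The 2 cells with fewest genes are Gfi1-negative, at 3700 and 3992 genes.

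The labels' state was read beside the monocyte markers Ly6c2 and Csf1r, and others, such as Ccr2 and Ctss, are given below. Ly6c2, a surface antigen of monocytes and their progenitors, was above 1 TPM in all 21 cells. Its lowest, median and highest values were 5749, 9220 and 13412 TPM in Gfi1-positive and 5485, 10212 and 17680 TPM in Gfi1-negative cells. Ly6c2 does not set Mono cells apart from the Gran-2 state of CD11b+ GMP-P. Its mean log2(TPM + 1) there was 12.8 in cells with Gfi1 above 1 TPM and 13.3 in the others. Csf1r, the receptor for macrophage colony-stimulating factor, was above 1 TPM in 9 of 12 Gfi1-positive and 6 of 9 Gfi1-negative cells. The same cells held neutrophil granule RNA at very high levels. Mpo, myeloperoxidase, was 9955, 21212 and 28301 TPM in the lowest, median and highest Gfi1-positive cell and 7105, 19363 and 31006 TPM in the Gfi1-negative cells. Monocyte and primary granule transcripts were thus present together on both sides.

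Read counts per cell are not given in the files, and the number of genes detected stands in for depth. It was 4664, 5793 and 6348 in the lowest, median and highest Gfi1-positive cell and 3700, 5063 and 6612 in the Gfi1-negative cells. Of 23956 genes in the table, 7697 were above 1 TPM in at least 25% of the cells of a side and were compared. The mean of log2(TPM + 1) was at least 2-fold higher in Gfi1-positive cells for 2067 of them (26.9%) and at least 2-fold lower for 777 (10.1%), and the median difference over all was 0.36. When 6 cells of each side were paired on genes detected, the counts were 1717 higher and 1787 lower, and the median was -0.03. The excess of higher genes is thus not seen in matched cells, so each list below is to be read against those medians, 0.36 in the full set of cells and -0.03 in matched cells, and against the shares of 26.9% higher and 10.1% lower. No gene had all cells of one side above all cells of the other.

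Several monocyte effector genes had lower means in Gfi1-positive cells. Of 19 compared members of a list of monocyte surface and effector genes (24 written), 6 were lower, 1 was higher and 12 were within 2-fold, and the median was -0.43 against 0.36 for all genes. The 6 were Lgals3, Ccr2, Ctss, Ly86, F13a1 and Ms4a6c, and the one higher was Clec12a (1.15). In the 6 pairs of matched cells the list's median was -0.40, against -0.03 for all genes. It lay between -0.53 and -0.19 when each cell in turn was left out. It moved by over 1.5 times without cell 9 (-0.25), 18 (-0.28), 39 (-0.23), 2 (-0.24), 6 (-0.19) or 48 (-0.21). Ly86, the MD-1 protein that partners an innate immune receptor, was 12.5, 229 and 432 TPM in the lowest, median and highest Gfi1-positive cell and 11.6, 660 and 2022 TPM in the Gfi1-negative cells, where 6 of 9 cells lay above every Gfi1-positive cell. Its mean was 6.75 ± 1.98 in Gfi1-positive and 8.77 ± 2.24 in Gfi1-negative cells on the log2(TPM + 1) scale, a difference of -2.03.

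Ccr2, the chemokine receptor by which monocytes leave the marrow, was above 1 TPM in 5 of 12 Gfi1-positive and 6 of 9 Gfi1-negative cells. It was 0, 0 and 258 TPM in the lowest, median and highest Gfi1-positive cell and 0, 83.7 and 339 TPM in the Gfi1-negative cells, a mean difference of -2.48. The sides overlapped, since cells at 0 stood on both. Ctss, the lysosomal protease cathepsin S, was 0, 3.59 and 144 TPM in Gfi1-positive and 0, 45.9 and 513 TPM in Gfi1-negative cells (lowest, median and highest). F13a1, a coagulation factor subunit made by monocytes, was 0, 46.5 and 685 TPM in Gfi1-positive and 0, 249 and 1301 TPM in Gfi1-negative cells. Lgals3, galectin-3, was above 1 TPM in 1 of 12 Gfi1-positive and 5 of 9 Gfi1-negative cells, up to 14.3 TPM in Gfi1-positive and 397 TPM in Gfi1-negative cells. Among the other members, Ly6c2 differed by -0.12 and Csf1r by 0.08. The sign of the Csf1r difference was not stable: it lay between -1.81 and 1.12 over 12 other settings, with its sign kept in 7, and was kept in 11 of 21 when a cell was left out. Klf4, a transcription factor of monocytes, differed by 0.38, with its sign kept in 9 of 12 settings.

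The chemokine gene Ccl3, which was among the 10 genes with the lowest difference, was 0, 1.01 and 167 TPM in the lowest, median and highest Gfi1-positive cell and 0, 121 and 1111 TPM in the Gfi1-negative cells. Its difference was -3.43, and 3 of 9 Gfi1-negative cells lay above every Gfi1-positive cell.

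Immediate early genes are induced within minutes by signals and also by cell handling. Of 17 compared, 7 were lower and 1 was higher by 2-fold or more, and the median was -0.47. Fos, a subunit of the AP-1 transcription factor, was 0.28, 882 and 1814 TPM in the lowest, median and highest Gfi1-positive cell and 265, 979 and 2393 TPM in the Gfi1-negative cells. The medians were close, while 3 Gfi1-positive cells had Fos at or below 1 TPM and no Gfi1-negative cell did. Egr1, a zinc-finger factor of the same class and also a gene repressed by GFI1, was 0, 9.79 and 911 TPM in Gfi1-positive and 0, 195 and 409 TPM in Gfi1-negative cells. In the matched cells Fos differed by -0.20, Egr1 by -0.15 and the list by a median of 0.06, so the direction of the list was not kept there. Leaving out each cell in turn gave a list median between -0.998 (without cell 43) and -0.13 (without cell 18 or cell 38). Zfp36, which codes for a protein that speeds decay of inflammatory mRNAs, differed by -3.03 in all cells and by -2.47 in the matched ones. It was 0, 146 and 910 TPM in Gfi1-positive and 128, 410 and 1228 TPM in Gfi1-negative cells.

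**Figure D2:**
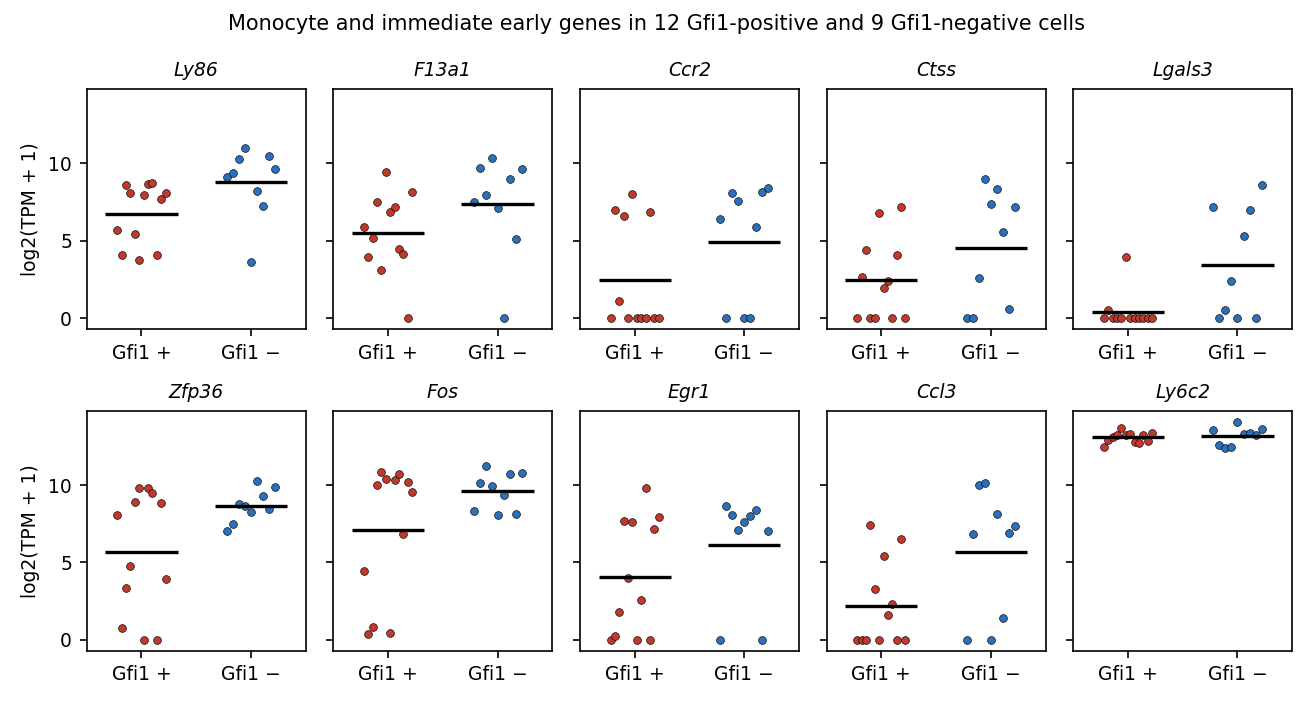
log2(TPM + 1) of 10 monocyte, immediate early and chemokine genes in each of 12 Gfi1-positive (left) and 9 Gfi1-negative (right) cells. Each point is a cell and each bar the mean, which for Ly86 is 6.75 in Gfi1-positive and 8.77 in Gfi1-negative cells.

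Primary granule genes, which code for the enzymes that early neutrophil precursors store, had high levels on both sides. Of 18 compared, 3 were higher and 2 lower by 2-fold or more, and the median was 0.30 in all cells and in the matched cells, below the median of all genes (0.36) in the first and above it (-0.03) in the second. Mpo differed by 0.24, Elane, neutrophil elastase, by 0.37 and Prtn3, proteinase 3, by 0.06. Elane was 11549, 23720 and 36493 TPM in the lowest, median and highest Gfi1-positive cell and 7884, 18216 and 30618 TPM in the Gfi1-negative cells. Cd63, a granule membrane tetraspanin, was 0.74, 1054 and 2163 TPM in Gfi1-positive and 1.37, 65.8 and 818 TPM in Gfi1-negative cells, with 7 of 12 Gfi1-positive cells above every Gfi1-negative cell. Lyz2, the lysozyme of monocytes and granulocytes, was 10.98, 71.7 and 863 TPM in Gfi1-positive and 7.41, 413 and 1940 TPM in Gfi1-negative cells, a difference of -1.72 in all cells and -0.64 in the matched ones. Lyz1, the other lysozyme gene, is near-identical to Lyz2 and differed by -1.46, and reads of the pair may be shared between them. Prss57, a serine protease of the same granules, differed by 2.44 in all cells and by 0.38 in the matched ones.

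Genes of later granules were mostly low. Of 15 compared, 1 was higher and 2 were lower by 2-fold or more, and the median was 0.11, below that of all genes. It was 0.49 in the matched cells and -0.15 (without cell 6) to 0.28 (without cell 21) when each cell was left out, with its sign kept in 16 of 21 and in 8 of 12 other settings. Anxa1, annexin A1, was higher in Gfi1-positive cells by 1.85. Mmp8, neutrophil collagenase, was 0, 0.54 and 214 TPM in the lowest, median and highest Gfi1-positive cell and 0, 87.9 and 464 TPM in the Gfi1-negative cells, a difference of -2.93 in all cells and -1.10 in the matched ones. Padi4, which citrullinates histones, was above 1 TPM in 0 of 12 Gfi1-positive and 4 of 9 Gfi1-negative cells. S100a8, a calprotectin subunit, showed a difference of -0.01.

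The largest difference among all named genes was in Hdc, histidine decarboxylase, the enzyme that makes histamine. Hdc was 113, 446 and 1166 TPM in the lowest, median and highest Gfi1-positive cell and 0, 2.33 and 196 TPM in the Gfi1-negative cells. In 9 of 12 Gfi1-positive cells it lay above every Gfi1-negative cell, and 2 Gfi1-negative cells were at 0. The mean was 8.67 ± 1.09 in Gfi1-positive and 2.84 ± 3.20 in Gfi1-negative cells, a difference of 5.83, which was 6.10 in the matched cells and 5.47 to 6.42 when each cell in turn was left out.

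Hdc is also a gene of basophils and mast cells, so their markers were read in the same cells. Of 14 genes in a basophil and mast cell list, 2 were compared (Hdc and Mcpt8) and 9 were at or below 1 TPM in all 21 cells. The summed level of the list was 159 to 1167 TPM in Gfi1-positive and 0.32 to 344 TPM in Gfi1-negative cells. Fcer1a, the alpha chain of the IgE receptor, was at 0 in every cell, and Cpa3, mast cell carboxypeptidase, was below 1 TPM in every cell. Ms4a2, the beta chain of that receptor, and Gata2 were each above 1 TPM in 0 of 12 Gfi1-positive and 2 of 9 Gfi1-negative cells. Mcpt8, a basophil protease, was above 1 TPM in 3 of 12 Gfi1-positive and 4 of 9 Gfi1-negative cells.

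The 9 other genes with the highest differences were Mtx1 (5.21), Ankrd10 (4.72), Hadhb (4.67), Foxn3 (4.62), Rab38 (4.61), Tefm (4.52), Mrpl55 (4.51), Haus1 (4.45) and Timm10 (4.22). Hdc and these 9 genes were chosen as extremes among genes that at least 50% of cells of the higher side held above 1 TPM. They thus entered through the side where they are high, and their size is a description. Tefm, a mitochondrial transcription elongation factor, was above 1 TPM in 11 of 12 Gfi1-positive and 0 of 9 Gfi1-negative cells. Foxn3, a forkhead repressor, was 0, 85.6 and 189 TPM in the lowest, median and highest Gfi1-positive cell and 0, 0.35 and 2.29 TPM in the Gfi1-negative cells. Mtx1, an outer membrane import protein, was 5.69, 69.6 and 415 TPM in Gfi1-positive and 0, 0 and 28.2 TPM in Gfi1-negative cells.

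The 10 with the lowest differences were Ino80c (-4.29), Aaas (-4.06), Zdhhc13 (-3.67), Ccl3, Zranb1 (-3.25), Clcn7 (-3.23), Pak1ip1 (-3.22), AI467606 (-3.13), Igtp (-3.09) and Lgals3 (-3.08). Aaas, a nuclear pore protein, was 0, 0.15 and 41.99 TPM in the lowest, median and highest Gfi1-positive cell and 0, 79.01 and 440 TPM in the Gfi1-negative cells. Of the 9 Gfi1-negative cells, 7 lay above every Gfi1-positive cell. Igtp, an interferon-induced GTPase, was above 1 TPM in 0 of 12 Gfi1-positive and 5 of 9 Gfi1-negative cells.

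**Figure D3:**
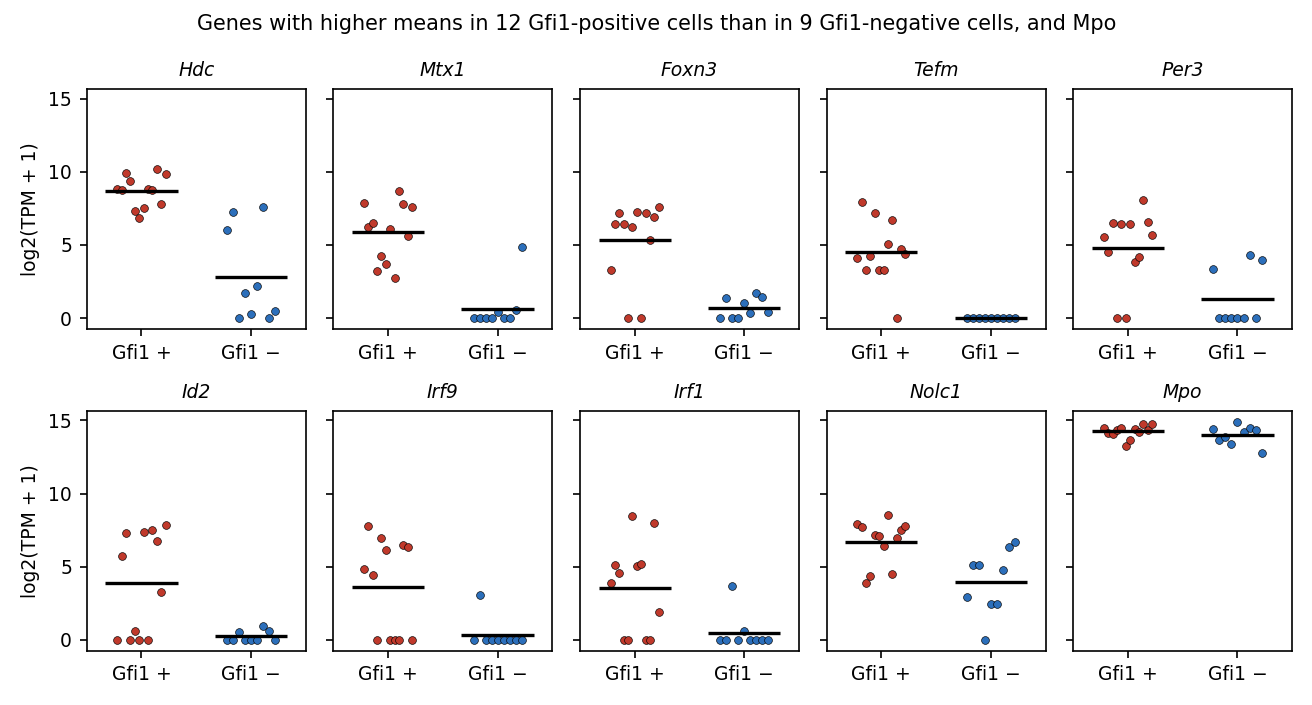
log2(TPM + 1) of 9 genes with higher means in 12 Gfi1-positive (left) than in 9 Gfi1-negative (right) cells, and of Mpo, which differed by 0.24. Each point is a cell and each bar the mean, which for Hdc is 8.67 in Gfi1-positive and 2.84 in Gfi1-negative cells.

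Genes for ribosome biogenesis make and assemble rRNA. Of 18 compared, 9 were higher and 0 lower by 2-fold or more, and the median was 1.02 against 0.36 for all genes. In the matched cells the median was 0.55, against -0.03 for all genes. Nolc1, a nucleolar phosphoprotein, was 13.5, 139 and 368 TPM in the lowest, median and highest Gfi1-positive cell and 0, 26.03 and 102 TPM in the Gfi1-negative cells, with 8 of 12 Gfi1-positive cells above every Gfi1-negative cell. It differed by 2.67 in all cells and in the matched ones. The list's median lay between 0.74 and 1.35 when each cell in turn was left out. Nop2, an rRNA methyltransferase, differed by 2.96 in all cells but by 0.54 in the matched ones. Of 39 ribosomal protein genes compared, 1 was higher and 0 were lower by that much, and their median was -0.15.

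Of 28 mitosis genes compared, 13 were higher and 3 lower by 2-fold or more, and the median was 0.85, which was -0.31 in the matched cells. Cks2, a cyclin-dependent kinase subunit, was 152, 444 and 1317 TPM in the lowest, median and highest Gfi1-positive cell and 0, 161 and 756 TPM in the Gfi1-negative cells. Ube2c, which marks mitotic proteins for destruction, was above 1 TPM in 10 of 12 Gfi1-positive and 4 of 9 Gfi1-negative cells. Of 26 DNA replication genes compared, 6 were higher and 3 lower by 2-fold or more, and the median was 0.38, which was -0.45 in the matched cells. Fen1, the flap endonuclease, was higher by 2.98, while Cdc6, which loads the replicative helicase, differed by -2.18.

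Genes known to be repressed by GFI1 were mixed. Of 13 compared (22 written), 2 were higher and 2 lower by 2-fold or more, and the median was -0.00 against 0.36 for all genes. Id2, an inhibitor of basic helix-loop-helix factors, was above 1 TPM in 7 of 12 Gfi1-positive and 0 of 9 Gfi1-negative cells, up to 230 TPM in Gfi1-positive and 0.91 TPM in Gfi1-negative cells. Cebpa, a factor of myeloid commitment, was above 1 TPM in 6 of 12 Gfi1-positive and 0 of 9 Gfi1-negative cells. Egr1 (-2.04) and Meis1 (-1.19), a homeobox factor of stem cells, were the ones that were lower. Of 12 compared genes for GFI1 corepressor partners, 2 were higher (Rbbp7 and Rcor3) and 1 was lower (Mta2) by 2-fold or more, and the median was -0.36. It was -0.90 in the matched cells and lay between -0.65 (without cell 21) and -0.10 (without cell 48) when each cell was left out.

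Among lineage transcription factors, a list written for granulocytes had 11 members compared. Of these, 4 were higher and 1 was lower by 2-fold or more. The list's median was 0.61 in all cells and -0.14 in the matched ones. Its largest differences were those of Per3, Foxp1 and Cebpa, so the count does not rest on granulocyte-specific factors alone. Per3, a circadian clock gene, was 0, 47.7 and 265 TPM in the lowest, median and highest Gfi1-positive cell and 0, 0 and 18.98 TPM in the Gfi1-negative cells, and Foxp1, a forkhead factor, was higher by 2.45. Cebpe, the factor of granulocyte maturation, differed by 0.73 in all cells and by -0.12 in the matched ones. Of 13 compared monocyte factors, 0 were higher and 5 lower by 2-fold or more (Fos, Egr1, Klf6, Mef2c and Cebpb), and the median was -0.32. The median was -0.18 in the matched cells, where Fos and Egr1 differed by -0.20 and -0.15. It lay between -0.60 (without cell 5) and -0.11 (without cell 38) when each cell was left out. The lists share members and are not separate results. Fos is also in the immediate early list and Egr1 in the GFI1 target list. Cebpa is in the GFI1 target and granulocyte factor lists, and Id2 in the GFI1 target and dendritic cell lists. In the interferon regulatory factor family, apart from Irf8, 2 of 6 compared members were higher and 0 lower by 2-fold or more, beside 26.9% and 10.1% of all genes. The median of the family was -0.12 in all cells and -1.28 in the matched ones, where Irf3 differed by -2.73. Irf9, which carries the type I interferon signal, was above 1 TPM in 7 of 12 Gfi1-positive and 1 of 9 Gfi1-negative cells. Irf1, a target of interferon gamma, was above 1 TPM in 8 of 12 Gfi1-positive and 1 of 9 Gfi1-negative cells. Ifngr1, a chain of the interferon gamma receptor, was 463, 795 and 1326 TPM in the lowest, median and highest Gfi1-positive cell and 8.71, 275 and 1098 TPM in the Gfi1-negative cells. Of 7 compared members of an interferon response list, 2 were higher and 0 lower by 2-fold or more, a share near that of all genes. Their median was 0.47 in all cells and 0.40 in the matched ones. Igtp, the interferon-induced gene named above among the lowest differences, is not in that list.

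**Figure D4:**
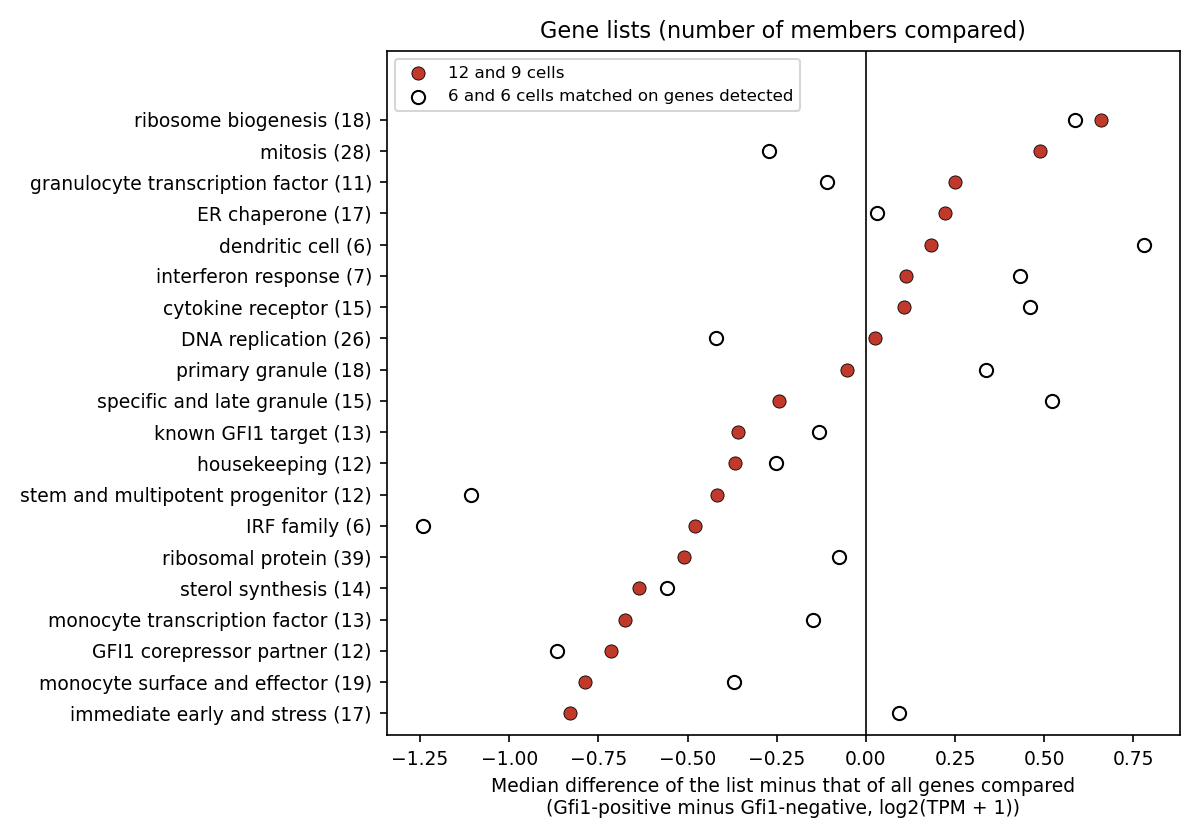
Median difference of 20 gene lists, Gfi1-positive minus Gfi1-negative, less the median of all genes compared (log2 scale), in all 12 and 9 cells (red) and in 6 and 6 cells matched on genes detected (open). Ribosome biogenesis stays to the right of 0 and monocyte surface and effector genes to the left in both. The mitosis, immediate early, granulocyte transcription factor, DNA replication, primary granule, and specific and late granule lists change side.

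The remaining lists are given by their counts of genes higher and lower by 2-fold or more, which compare with 26.9% and 10.1% of all genes, and by their medians. Of 15 cytokine receptors, 5 were higher and 2 lower, with a median of 0.46 in all cells and 0.43 in the matched ones. Of 12 stem and multipotent progenitor genes, 4 were higher and 1 lower, with a median of -0.06 in all cells and -1.14 in the matched ones. Of 17 endoplasmic reticulum chaperones, 3 were higher and 0 lower, with a median of 0.58 in all cells and -0.003 in the matched ones. Of 14 sterol synthesis genes, 3 were higher and 2 lower, with a median of -0.28 in all cells and -0.59 in the matched ones. Of 6 dendritic cell genes, 2 were higher and 0 lower, with a median of 0.54 in all cells and 0.75 in the matched ones. Of 12 housekeeping genes, 0 were higher and 1 was lower, with a median of -0.01 in all cells and -0.29 in the matched ones. The endoplasmic reticulum and progenitor lists were thus far from their first value in the matched cells. Kit, the receptor used for the enrichment, was above 1 TPM in 8 of 12 Gfi1-positive and 3 of 9 Gfi1-negative cells. The eosinophil, erythroid, megakaryocyte, B cell and T and NK cell lists had 0, 1, 2, 1 and 1 members compared. Epx and Prg2 of eosinophils, Klf1 of erythroid cells, Pf4 of megakaryocytes and Cd3e of T cells were at 0 in all 21 cells. The compared members of these lists were not silent. In Gfi1-positive and Gfi1-negative cells, mean log2(TPM + 1) was 11.3 and 10.7 for Nkg7 (T and NK cell). It was 4.56 and 3.61 for Tfrc (erythroid) and 2.85 and 1.63 for Cd79b (B cell). Cd9 and Fli1 (megakaryocyte) together averaged 5.37 and 4.39.

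The 3 Mono cells without Irf8 had Gfi1 at 47.7, 337 and 341 TPM. Set against the same 9 Gfi1-negative cells, which the comparison above also uses, monocyte surface and effector genes had a median of -1.56, beside 0.50 for all 8176 genes compared there. Ly86 was at 0, 0 and 3.21 TPM and Ly6c2 at 43.1, 765 and 2687 TPM in these 3 cells (lowest, median, highest).

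The same Gfi1 threshold was applied to cells outside the Mono state, chosen after the data had been seen. In the Gran-2 state of CD11b+ GMP-P, with 17 Gfi1-positive and 3 Gfi1-negative cells, 63 of the 71 named genes that were at least 2-fold apart in the Mono cells could be compared, and 21 had the other sign. In GMP cells outside Mono, with 14 Gfi1-positive and 7 Gfi1-negative cells, 66 could be compared and 23 had the other sign. These GMP cells mix states that the Gfi1 threshold itself divides: all 6 Gran-1 cells had Gfi1 above 1 TPM, while the median was 0 in Multi-Lin and in cMoP. The median of all genes was 0.04 in Gran-2 and 0.10 in GMP cells outside Mono. The share of all genes with the other sign was not counted, so the counts of 21 and 23 have no background. Hdc averaged 9.20 in Gfi1-positive and 8.95 in Gfi1-negative Gran-2 cells, and 9.002 in Gfi1-positive and 9.20 in Gfi1-negative GMP cells outside Mono, so its difference in those cells was 0.25 and -0.19. Monocyte surface and effector genes had a median of -1.33 in Gran-2 and 0.19 in GMP cells outside Mono. Ribosome biogenesis genes had a median of 1.10 in Gran-2 and 0.23 in GMP cells outside Mono, and primary granule genes one of 0.17 in Gran-2 and 2.24 in GMP cells outside Mono.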

How the data were processed

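Per the submitters' processing notes, reads were handled with Bowtie2 and RSEM on mm9, with no versions given. Values deposited by the authors are log2(TPM + 1) for 23956 genes in 92 cells, and the authors' deposited state table gives each cell's state. TPM was recovered as 2 to the power of the value, less 1. Read depth is unknown. How doublets were treated is not stated, and no doublet caller was run.

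Difference means mean log2(TPM + 1), Gfi1-positive minus Gfi1-negative, over genes above 1 TPM in 25% or more of a side, without Gfi1 and Irf8, which chose the cells. It understates the change of low genes. Named genes are the 10 highest and 10 lowest among genes that at least 50% of cells on the higher side held above 1 TPM, and up to 3 per list with the largest absolute difference. Further list members, such as Ly86, F13a1 and Csf1r, and markers of other cell types were named after their values were seen. Cells, genes and lists were chosen with earlier results of these data known. Analyses used Python 3.11.15, pandas 2.3.3 and numpy 2.4.6, and were tested on simulated data. There were 12 other settings of the analysis, 1 added after seeing the data, and 21 that left out a cell.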

Additional observations from a re-analysis of the deposited data

Results flagged for a closer look

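Of 42 groups of values checked among the 9 Gfi1-negative cells, 5 had a cell far from the others. The rule flags about 1 in 20 groups of normally spread values. These values are not normally spread, so the count of 5 cannot be judged against that rate. Mtx1, Rab38 and Haus1 were among the genes with the highest difference, which puts most Gfi1-negative cells near 0 from the outset. Mtx1 was 4.87 (log2(TPM + 1)) in cell 48. Rab38 was 6.61 in cell 43, and all other Gfi1-negative cells were at 0. Haus1 was 7.03 in cell 43. The mean of the dendritic cell list was 4.54 in cell 43. The mean of the ribosomal protein list was 10.49 in cell 21, the lowest, which is also the cell with fewest genes detected (3700).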

How the results depend on the processing

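No paired analysis was possible because cell numbers only name cells and pair none across sides. Matching cells on genes detected moved the balance of calls: the share of higher genes among those 2-fold apart was 72.7% in all cells and 49.001% in matched cells, the count of lower genes became 1787 and the median of all genes -0.034. Without the 2 cells with fewest genes, an alternative added after seeing the data, 1220 genes were lower and 59.5% of those apart were higher. The ratio of mean TPM gave 1314 lower genes and 62.03% higher. A pseudocount of 10 gave 678 higher and 227 lower genes. The median of all genes was 0.014 as a difference of medians and 0 with no filter. Leaving out each cell gave 1926 to 2303 higher genes, 728 to 1036 lower genes and a median of 0.19 (without cell 21; 0.23 without cell 6) to 0.40. The mitosis median was 0.55 without cell 6 and 1.31 without cell 48. The immediate early median was also moved by over 1.5 times without cell 5, 27, 28, 36, 47, 19, 21 or 34, the primary granule median without cell 36 (0.48) and the granulocyte factor median without cell 20 (0.35). The GFI1 target median kept its sign in 8 of 12 settings and 16 of 21 cells left out, and leaving out a cell moved the other list medians by over 1.5 times as well, except ribosome biogenesis and ribosomal protein; over those fits the IRF family median ran from -0.62 to 0.40, sterol synthesis from -0.40 to 0.07, progenitor genes from -0.37 to 0.29, chaperones from 0.18 to 0.67 and interferon response from 0.14 to 0.96. Signs turned for Mta2 (0.29) and Chaf1b (0.17) with Gfi1 split at 0, for Rcor3 (-0.65) and Ifi35 (-1.12) by mean TPM, and for Ifitm3 (-0.0097), Rpl30 (-1.07), Cd9 (-0.37) and Cd79b (-0.58) in matched cells. The monocyte surface and effector list (-0.67 to -0.25) and ribosome biogenesis list (0.55 to 1.62) kept their sign in all 12 other settings. So did the lists of GFI1 corepressor partners (-0.90 to -0.008), monocyte factors (-0.62 to -0.06), primary granule genes (0.18 to 0.45) and ribosomal proteins (-0.23 to -0.08). The cause of these shifts was not tested. That the 21 cells come from 1 gate and that read depth is unknown limit every value.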
